A study of Mus musculus with 12 samples.

Results

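The comparison described here sets 4-cell (4C) mouse embryos against early 2-cell (early 2C) embryos after injection of the RC ASO, an antisense oligonucleotide that the study's design calls a control. It covers 6 of the study's 12 libraries, 3 per stage, chosen by the stage and ASO in the labels. The other 6 came from embryos injected with a LINE1 ASO. In both groups the strain is given as C57/Bl6, with C57BL/6J parents. Superovulated females were 5 to 8 weeks old and males 2 to 6 months old. Zygotes received RC ASO by microinjection at 0.75 mM and were cultured in KSOM medium. The early 2C embryos were collected about 33 h after the ovulating hormone hCG, which was about 9 h after injection, and the 4C embryos after 2 days of culture. All 6 libraries therefore came from injected, cultured embryos of superovulated females, and no uninjected embryos are among the samples analysed here. The sources used here do not give what RC stands for, the number and sex of the embryos in a library, or whether libraries came from separate pools of embryos. The p-values below therefore reflect only how far these libraries lay from each other, which can be technical variation. Each library was made from 500 pg of total RNA, and the deposited values are raw counts of reads per gene.

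After fertilisation the mouse embryo runs at first on RNA and protein that the oocyte stored. Much of this maternal RNA is removed around the 2-cell stage, while a brief minor and then a larger major wave of transcription start from the embryo's own genome. Early 2C embryos lie around the start of the major wave, and by 4C the embryo's own transcripts make up most of what it translates, before compaction and the first lineage choice.

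The total count was 25803112, 28861666 and 29131716 in the early 2C libraries and 21030581, 19160716 and 24249661 in the 4C libraries, over 23284 genes. Across genes, log2 CPM (a gene's counts scaled to a common library size) correlated with Pearson's r of 0.963 to 0.974 between early 2C libraries, 0.939 to 0.953 between 4C libraries and 0.511 to 0.551 between stages. The median coefficient of variation between replicates of genes with at least 10 CPM was 10.7% at early 2C and 16.7% at 4C. All levels are CPM scaled by the trimmed mean of M-values (TMM). They are shares of an embryo's measured RNA and not amounts per embryo, because no spike-in is described. In whole embryos, fewer cells with a transcript and less of it per cell cannot be told apart.

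Between early 2C and 4C most measured genes changed. Of 14352 genes tested with edgeR's quasi-likelihood test, 5319 were higher at 4C (37.1% of those tested) and 5309 were lower (37.0%) at a Benjamini-Hochberg adjusted p below 0.05, which is 74.1% in either direction. By at least 4-fold, 3674 genes were higher (25.6%) and 3435 lower (23.9%), or 49.5% in all. The 3 libraries of one stage did not overlap with those of the other for 11552 genes (80.5%). A lack of overlap in a gene named below was therefore usual, and part of the naming rule required it. The median log2 fold change, 4C minus early 2C, was 0.079, and its quartiles were -2.0 and 2.18. The genes that fell by at least 4-fold held 50.5%, 51.4% and 50.9% of all counts in the early 2C libraries and 5.64%, 6.97% and 6.82% in the 4C libraries. Those that rose by at least 4-fold went from 3.83%, 3.58% and 3.35% of the counts to 46.7%, 43.6% and 44.3%. The 2 classes thus changed places as the main source of counts, and the libraries of each stage lay close together. These shares describe genes chosen by the same contrast.

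**Figure D1:**
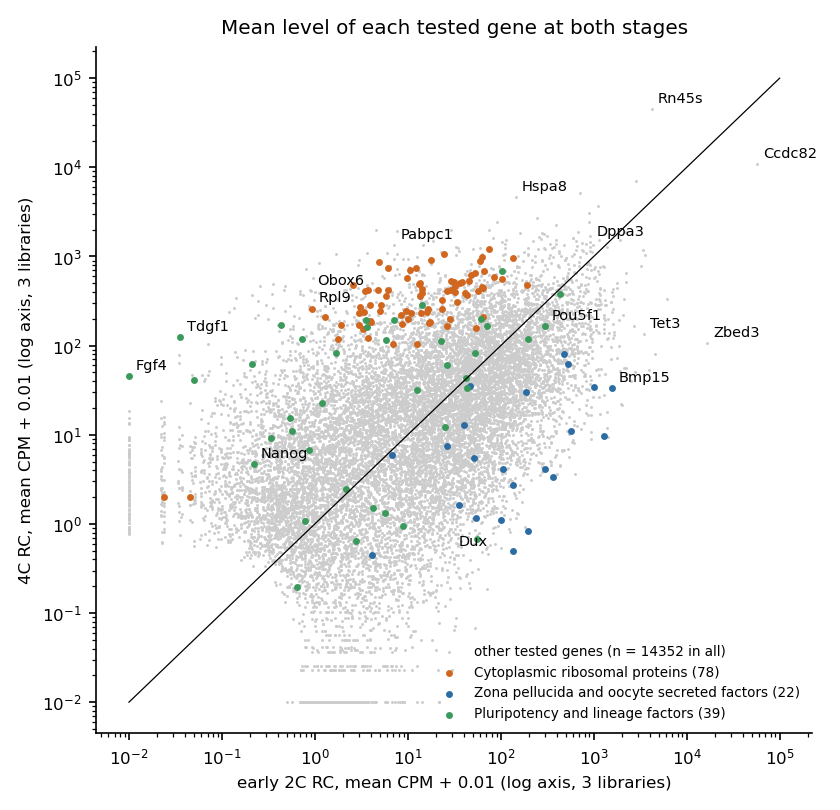
Mean level of each tested gene at early 2C (x axis) and at 4C (y axis), in TMM-scaled CPM on log axes with 0.01 CPM added, over 3 libraries a stage. Orange points are 78 ribosomal proteins, which all lie above the line of equal levels. Blue points are 22 genes of the list of zona pellucida, secreted and other oocyte factors, most of them far below the line. Green points are 39 pluripotency and lineage factors on both sides.

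RNAs of a list of zona pellucida genes, oocyte secreted factors and other oocyte-expressed genes, such as Tcl1, mostly fell. Of 22 members, 0 rose and 20 fell, which is 0.0% and 90.9%, beside 37.1% and 37.0% over all tested genes. The median log2 fold change was -4.77 against 0.079 over all tested genes. Bmp15, which encodes a growth factor that oocytes send to the follicle, stood at 1602, 1523 and 1584 CPM at early 2C and 28, 36.2 and 35 CPM at 4C (log2 change -5.57, SE 0.167, edgeR adjusted p = 1.64e-09). Its partner Gdf9 stood at 493, 672 and 413 CPM and then 50.9, 64.6 and 70.3 CPM (log2 change -3.09, SE 0.211, edgeR adjusted p = 2.15e-07). All 3 libraries at 4C lay far below all 3 at early 2C for both growth factors. Tcl1, an activator of AKT kinase signalling that oocytes express strongly, had 1198, 1467 and 1222 CPM and then 12.2, 5.32 and 11.7 CPM (log2 change -7.05, SE 0.320, edgeR adjusted p = 1.26e-08). Its relative Tcl1b2 fell by 8.10 on the log2 scale, from 136 ± 4.89 to 0.481 ± 0.328 CPM (mean ± SD, n = 3 at each stage, as for every such pair of means below). Oosp1, an oocyte secreted protein, went from 569 ± 66.2 to 11 ± 3.2 CPM (log2 -5.69). The genes of the zona pellucida, the glycoprotein coat of the egg, are 3 in this list. Zp1 had 37.3, 48.6 and 35.9 CPM at early 2C and 11.2, 14.7 and 13.1 CPM at 4C (log2 change -1.64, SE 0.242, edgeR adjusted p = 9.62e-05). Zp2 had 167, 221 and 168 CPM at early 2C and 30.1, 22.7 and 37.8 CPM at 4C (log2 change -2.62, SE 0.216, edgeR adjusted p = 9.74e-07), so that the stages did not overlap in Zp1 or Zp2. Zp3 had 38.8, 57.6 and 43.8 CPM and 31.7, 32.9 and 41.9 CPM, and did not pass the test (log2 change -0.40, SE 0.220, edgeR adjusted p = 0.124); its stages overlapped. The other member that did not pass was Kitl, the ligand of the KIT receptor, with 8.96, 4.1 and 7.17 CPM and 5.67, 5.88 and 6.25 CPM. Zp1, Zp2, Zp3 and Kitl were picked out after their values were seen.

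RNAs of a list of oocyte translation, meiosis and RNA storage genes, with other oocyte-expressed genes such as Bcl2l10, mostly fell too. Of 44 members, 4 rose and 38 fell, which is 9.09% and 86.4%, beside 37.1% and 37.0% over all tested genes. The median log2 fold change of the list was -3.44. Together the members held 17620 to 19240 CPM at early 2C and 2986 to 3453 CPM at 4C. Btg4, an adaptor that brings the deadenylase complex to maternal RNAs at egg maturation, stood at 2186, 2301 and 2236 CPM and then 48.3, 51.2 and 67.2 CPM (log2 change -5.33, SE 0.179, edgeR adjusted p = 2.76e-09). Wee2, an oocyte kinase that holds CDK1 inactive, stood at 948, 972 and 898 CPM and then 13.7, 17.8 and 17.9 CPM (log2 change -5.83, SE 0.174, edgeR adjusted p = 1.64e-09). Bcl2l10, an oocyte member of the BCL2 family, fell further, from 1438 ± 110 to 9.51 ± 4.34 CPM (log2 -7.23). Zar1, an RNA-binding protein of the oocyte, fell less, from 222, 268 and 237 CPM to 32.5, 38.1 and 41.9 CPM (log2 change -2.69, SE 0.164, edgeR adjusted p = 9.08e-08). Mos, the kinase that keeps the egg in meiotic arrest, was already low at early 2C, with 12.3, 12.4 and 8.56 CPM, and fell to 1.01, 2.57 and 2.14 CPM (log2 change -2.53, SE 0.481, edgeR adjusted p = 0.000631). In all of these genes the lowest early 2C library was above the highest 4C library. Stages did not overlap in 80.5% of all tested genes.

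Members of the subcortical maternal complex, a protein assembly under the egg surface that the first cleavages need, did not move alike. Nlrp5 went from 753, 767 and 760.4 CPM to 44.5, 49.8 and 56.1 CPM (log2 change -3.92, SE 0.149, edgeR adjusted p = 4.52e-09) and Ooep from 432, 469 and 384 CPM to 4.33, 4.9 and 4.59 CPM (log2 change -6.54, SE 0.176, edgeR adjusted p = 1.12e-09). Khdc3, listed as 2410004A20Rik, had 19, 27.9 and 22.1 CPM and 47.2, 29.2 and 36.2 CPM (log2 change 0.70, SE 0.255, edgeR adjusted p = 0.0275), a small rise that no longer passed without early 2C replicate 1 or 3 or without 4C replicate 1 or 3 (adjusted p above the threshold in each of these fits). The other members of the list of oocyte translation, meiosis and RNA storage that rose were Taf4b, Dppa3 and Ddx4. Dppa3, which shields the maternal genome from loss of DNA methylation, stood at 877, 980.3 and 907 CPM and 1681, 1512 and 1144 CPM (log2 change 0.65, SE 0.157, edgeR adjusted p = 0.00319). Ddx4, a germ cell RNA helicase, had 39.4, 44.8 and 29.6 CPM and 50.5, 48.7 and 64.5 CPM (log2 change 0.53, SE 0.216, edgeR adjusted p = 0.0464) and was named after its values were seen. Its call was lost in 10 of 16 other fits, among them those with a replicate block (adjusted p = 0.0755) and with DESeq2 size factors (0.0514). Taf4b, a germ cell subunit of the general transcription factor TFIID, went from 50.8, 45.6 and 57 CPM to 237, 311 and 279 CPM (log2 change 2.43, SE 0.164, edgeR adjusted p = 1.9e-07). It was the largest rise in the list. The number of members that rose was 2 with a replicate block and in each fit without early 2C replicate 1 or 3 or without 4C replicate 1 or 3.

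Oocytes use their own versions of several proteins, and in several pairs the oocyte form fell while the widely expressed form rose. To compare the forms with each other, CPM was divided by the length of the longest transcript in kilobases (kb). The cap-binding protein Eif4e1b was at 529 ± 10.6 CPM per kb at early 2C and 12.4 ± 2.34 at 4C, and Eif4e was at 68.6 ± 2.73 and then 207 ± 8.05, so that their order turned. The same turn was seen between the poly(A)-binding proteins. Pabpc1l went from 149 ± 14.6 to 2.1 ± 0.812 CPM per kb and Pabpc1 from 2.44 ± 0.224 to 464 ± 49.5 CPM per kb. Pabpc1 itself stood at 7.63, 7.37 and 6.39 CPM and then 1491, 1203 and 1363 CPM (log2 change 7.57, SE 0.184, edgeR adjusted p = 9.09e-10), and its stages lay far apart.

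The 3 pairs that follow concern chromatin and the cell cycle. The linker histone H1foo went from 359 ± 103 to 11 ± 0.558 CPM per kb, and Hist1h1c from 11.3 ± 2.94 to 163 ± 48.6. Of the nucleoplasmins, Npm2, which remodels sperm chromatin, went from 629 ± 137 to 43.9 ± 9.08 CPM per kb, and Npm1, the abundant nucleolar form, from 549 ± 35.4 to 1480 ± 207. Between the kinases that inhibit CDK1, Wee2 went from 326 ± 13 to 5.7 ± 0.829 CPM per kb and Wee1 from 2.37 ± 0.644 to 7.79 ± 1.41. Wee1 at 4C stayed far below the early 2C level of Wee2 in CPM per kb, and the sum of both forms was far lower at 4C. The lactate dehydrogenases, neither of them a form particular to oocytes, also moved apart in direction, without a turn in their order. Ldhb went from 1010 ± 127 to 36.8 ± 3.03 CPM per kb and Ldha from 1.23 ± 0.297 to 10.3 ± 1.49. The RNA-binding Y-box proteins differed in that the general form was already ahead at early 2C. Ybx2 went from 240 ± 22.4 to 14.1 ± 1.21 CPM per kb and Ybx1 from 566 ± 46.6 to 1050 ± 105. The TFIID subunits went the other way, with the germ cell form Taf4b from 9.94 ± 1.11 to 53.5 ± 7.2 CPM per kb and the general form Taf4a from 54.8 ± 7.38 to 15.8 ± 2.23. Both BCL2 relatives fell, Bcl2l10 from 1180 ± 90.2 to 7.79 ± 3.56 CPM per kb and Bcl2l1 from 112 ± 2.54 to 11.8 ± 1.68. So did Tbpl2, from 8.29 ± 0.799 to 0.324 ± 0.189 CPM per kb, and its general counterpart Tbp, from 9.69 ± 1.18 to 7.41 ± 0.658. Cnot6l fell from 87.5 ± 8.92 to 4.13 ± 0.439 CPM per kb. Its counterpart Cnot6 had 7.35 ± 1.63 and 8.1 ± 1.62 CPM per kb and did not pass (adjusted p = 0.594, edgeR). Of 19 general counterparts listed and tested, 11 rose and 6 fell, with a median log2 fold change of 0.92. This is 57.9% and 31.6%, beside 37.1% and 37.0% over all tested genes.

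**Figure D2:**
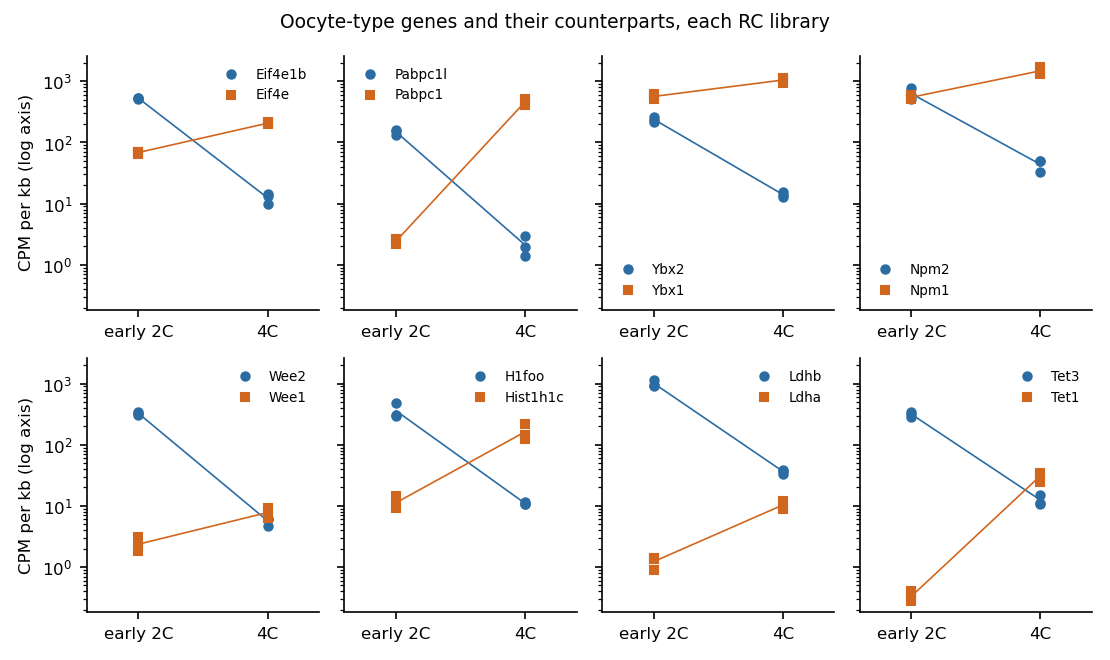
Levels of 8 genes (blue), most of them oocyte-type forms, and their counterparts (orange) in CPM per kb of longest transcript on a log axis. Each pair has a panel, with each library as a point at early 2C and at 4C and lines between the means. In the Pabpc1l and Pabpc1 panel the lines cross, from 149 and 2.44 to 2.1 and 464 CPM per kb, while Ybx1 lies above Ybx2 at both stages.

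Of 62 tested genes whose proteins shorten, decap and destroy messenger RNA, 32 rose and 22 fell, which is 51.6% and 35.5%, beside 37.1% and 37.0% over all tested genes, with a median log2 fold change of 0.47. The catalytic deadenylase Cnot6l stood at 815, 665 and 766 CPM at early 2C and 33.9, 32.6 and 39.6 CPM at 4C (log2 change -4.40, SE 0.162, edgeR adjusted p = 3.74e-09). Another deadenylase of the same CCR4-NOT complex, Cnot7, went from 597, 617 and 567 CPM to 83.6, 102 and 80.7 CPM (log2 change -2.74, SE 0.146, edgeR adjusted p = 3.57e-08), and the decapping activator Dcp1a from 643, 769.9 and 611 CPM to 72.3, 70.5 and 75.6 CPM (log2 change -3.21, SE 0.148, edgeR adjusted p = 1.31e-08). The early 2C libraries were the higher ones in all 3 genes. Among those that rose were the decapping factor Edc3, from 0.169 to 18.2 CPM (log2 6.73), and the antiproliferative deadenylase partner Btg1, from 5.37 to 144 CPM (log2 4.74). The terminal uridylyltransferases, which mark short-tailed RNAs for decay, rose unequally: Zcchc11, also called Tut4, went from 1.23 ± 0.280 to 58.8 ± 16.8 CPM, and Zcchc6, also called Tut7, from 63.2 ± 6.34 to 132 ± 32.9 CPM. Zfp36l2, which binds AU-rich elements, had 34.5, 30.3 and 35.9 CPM and 35.8, 32.8 and 40.4 CPM and did not pass (adjusted p = 0.623, edgeR).

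The genes of the cytoplasmic ribosome rose together. All 78 tested of 80 listed ribosomal protein genes were higher at 4C, 75 of them by at least 4-fold, and the median log2 fold change was 4.32. Over all tested genes, 37.1% were higher and 25.6% were higher by at least 4-fold. Summed over the list, the ribosomal protein genes held 1686 to 2545 CPM at early 2C and 26250 to 37180 CPM at 4C. Rpsa, a protein of the small subunit, stood at 5.31, 4.71 and 4.52 CPM and then 1008, 612 and 987 CPM (log2 change 7.49, SE 0.253, edgeR adjusted p = 2.79e-09). Rps3, also of the small subunit, stood at 1.95, 3.38 and 2.32 CPM and then 617, 379 and 449.7 CPM (log2 change 7.55, SE 0.290, edgeR adjusted p = 4.75e-09). Rpl9, of the large subunit, stood at 1.1, 1.01 and 0.635 CPM and then 297, 214 and 272 CPM (log2 change 8.14, SE 0.264, edgeR adjusted p = 2.59e-09). In these genes every 4C library exceeded every early 2C library by a wide margin. Ribosomal protein genes have many processed pseudogenes, and the sources used here do not give how reads shared with them were counted, so their levels are uncertain.

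The machinery that builds ribosomes in the nucleolus rose as well. Of 94 tested members, 82 rose and 2 fell, which is 87.2% and 2.13%, beside 37.1% and 37.0% over all tested genes. The median log2 fold change of the list was 2.40. Its summed level was 8370 to 8544 CPM at early 2C and 26240 to 31380 CPM at 4C. Fbl, the methyltransferase of box C/D small nucleolar RNPs, stood at 8.96, 10.6 and 12 CPM and then 256, 202 and 235 CPM (log2 change 4.46, SE 0.189, edgeR adjusted p = 7.9e-09). Polr1a, the largest subunit of RNA polymerase I, went from 41.7, 37 and 44.7 CPM to 371, 304 and 417 CPM (log2 change 3.15, SE 0.169, edgeR adjusted p = 3.84e-08). Fbl and Polr1a were thus low in every early 2C library. Ncl, the abundant nucleolar protein nucleolin, was already high at 862, 905 and 880.4 CPM and stood at 3439.6, 2579.7 and 3173 CPM at 4C (log2 change 1.80, SE 0.144, edgeR adjusted p = 7.16e-07). Nolc1, a nucleolar scaffold, went from 289.6 ± 7.16 to 1769 ± 315 CPM (log2 2.61). Nop16, a factor of large subunit assembly, had the largest rise in the list among genes averaging at least 50 counts, from 0.483 to 67.5 CPM (log2 7.11). The members that fell were Riok1, a kinase of small subunit maturation, with 864, 838 and 913 CPM and 59.7, 70.9 and 59.1 CPM (log2 change -3.79, SE 0.147, edgeR adjusted p = 4.75e-09), and Taf1a, a subunit of the RNA polymerase I selectivity factor, with 172 ± 31.5 and 109.7 ± 13.9 CPM (log2 -0.65). Counts on Rn45s, the precursor of ribosomal RNA, were 6612, 3216 and 2765 CPM at early 2C and 54339, 36929.7 and 44466 CPM at 4C (log2 change 3.43, SE 0.320, edgeR adjusted p = 2.58e-06). They made up 0.618%, 0.31% and 0.254% of the early 2C libraries and 5.61%, 4.13% and 4.64% of the 4C libraries. Ribosomal RNA is what a depletion step in library making would remove, and the part of that step in this value was not tested.

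Promoter sequences were searched for CCGGAAG, a core recognised by ETS family factors such as GABPA, whose own gene is described with the regulators. The whole promoter sequence available for each RefSeq start (build GRCm38.p6) was searched on both strands, and it is longer than the stretches printed below. It held the motif in 36.7% of 60 ribosomal protein promoters (22 promoters) and 43.9% of 82 nucleolar promoters (36 promoters). The share was 16.8% over the 11363 promoters of tested genes and 9.12% over all 27025 promoters in the table. By change, it was 18.7% for genes at least 4-fold higher, 10.4% for those at least 4-fold lower and 18.9% for the other tested genes, so the share among genes that rose was close to that among genes that changed less. Of the oocyte lists, that of zona pellucida, secreted and other oocyte factors held the motif in 1 of 17 promoters. The list of oocyte translation, meiosis and RNA storage held it in 1 of 36. The stretches below are 170 bases around the RefSeq start, a part of each promoter searched. The motif or its reverse complement CTTCCGG is in capitals. Ribosomal proteins (Rpl38, Rps18, Rpl6) and nucleolar factors were picked among genes with the motif in this part. The nucleolar ones are Nop2, an rRNA methyltransferase, Taf1c, of the RNA polymerase I selectivity factor, and Dhx37, a helicase of small subunit assembly. The oocyte factors Bmp15, Tcl1 and Oog3 have no match in this part. All stretches read 5′ to 3′ on the gene's strand.
Rpl38 (chr11:114668430-114668599, plus strand): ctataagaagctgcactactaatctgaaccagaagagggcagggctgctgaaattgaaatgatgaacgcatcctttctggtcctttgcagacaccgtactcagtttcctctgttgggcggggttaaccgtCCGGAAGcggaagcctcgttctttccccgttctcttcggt
Rps18 (chr17:33955646-33955815, minus strand): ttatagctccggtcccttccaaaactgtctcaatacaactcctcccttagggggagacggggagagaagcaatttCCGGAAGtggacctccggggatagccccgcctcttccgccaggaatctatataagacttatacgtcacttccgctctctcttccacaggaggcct
Rpl6 (chr5:121204351-121204520, plus strand): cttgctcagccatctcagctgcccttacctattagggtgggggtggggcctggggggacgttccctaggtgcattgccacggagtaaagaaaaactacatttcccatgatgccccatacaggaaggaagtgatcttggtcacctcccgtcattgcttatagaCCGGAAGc
Nop2 (chr6:125131733-125131902, plus strand): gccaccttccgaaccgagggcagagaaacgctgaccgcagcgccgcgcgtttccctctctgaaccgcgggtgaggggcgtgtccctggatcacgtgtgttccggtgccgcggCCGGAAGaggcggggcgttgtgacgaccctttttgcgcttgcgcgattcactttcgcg
Taf1c (chr8:119605187-119605356, minus strand): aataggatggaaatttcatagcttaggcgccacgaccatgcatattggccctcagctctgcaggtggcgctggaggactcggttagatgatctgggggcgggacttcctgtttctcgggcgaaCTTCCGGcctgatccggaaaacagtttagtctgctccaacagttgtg
Dhx37 (chr5:125434029-125434198, minus strand): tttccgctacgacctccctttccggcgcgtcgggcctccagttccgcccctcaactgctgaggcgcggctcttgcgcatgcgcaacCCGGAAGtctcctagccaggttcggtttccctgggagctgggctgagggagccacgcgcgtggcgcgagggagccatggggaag
Bmp15 (chrX:6320705-6320874, minus strand): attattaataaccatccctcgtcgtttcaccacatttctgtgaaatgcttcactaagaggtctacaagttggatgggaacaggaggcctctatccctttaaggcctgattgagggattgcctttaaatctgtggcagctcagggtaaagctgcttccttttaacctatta
Tcl1 (chr12:105222718-105222887, minus strand): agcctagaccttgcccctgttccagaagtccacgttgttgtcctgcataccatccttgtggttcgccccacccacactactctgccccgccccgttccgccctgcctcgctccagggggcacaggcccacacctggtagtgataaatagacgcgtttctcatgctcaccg
Oog3 (chr4:144162632-144162801, minus strand): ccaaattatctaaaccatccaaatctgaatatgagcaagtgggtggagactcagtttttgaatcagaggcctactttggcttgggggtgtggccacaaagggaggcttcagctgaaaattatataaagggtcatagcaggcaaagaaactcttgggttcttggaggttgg
A match is a description of letters and says nothing of binding.

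**Figure D3:**
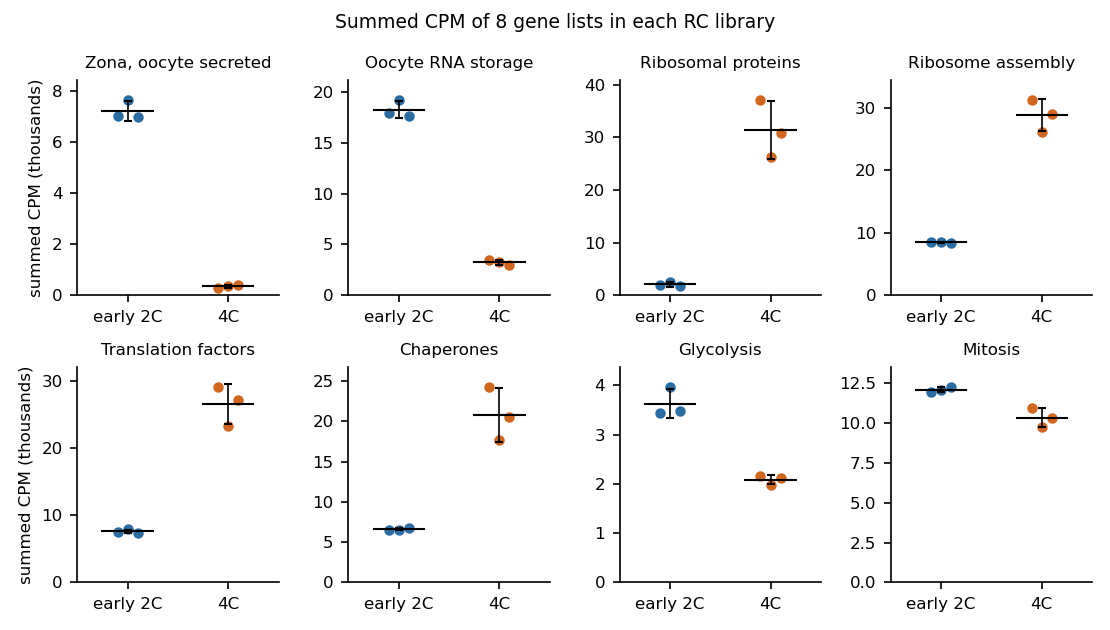
Summed level of the members of selected gene lists in each library, in CPM, with 1 point per library, a line for the mean of 3 and error bars for the SD. Ribosomal proteins went from 1686 to 2545 CPM at early 2C to 26250 to 37180 CPM at 4C, and the oocyte lists went down.

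Genes of translation and protein folding were mostly higher. Of 50 tested translation factors, 43 rose and 5 fell, with a median log2 fold change of 1.84. Eef1a1, which brings aminoacyl-tRNA to the ribosome, stood at 598, 722 and 591 CPM and then 1764, 1276 and 1425 CPM (log2 change 1.22, SE 0.158, edgeR adjusted p = 3.49e-05), and the helicase Eif4a1 at 477, 514 and 496 CPM and then 989, 834 and 943 CPM (log2 change 0.90, SE 0.128, edgeR adjusted p = 7.5e-05). These rises were modest beside that of Eif1a, a factor of start codon scanning, from 1.87, 0.287 and 0.486 CPM to 124, 129.7 and 86.4 CPM (log2 change 7.04, SE 0.535, edgeR adjusted p = 5e-07). Its X-linked relative Eif1ax fell, from 82.5 ± 12.1 to 40.01 ± 3.8 CPM (log2 -1.04); the copies are near-identical, so the split of reads between them is uncertain. Eif2s3y, the Y-linked gamma subunit of eIF2, had 1 count over the 3 early 2C libraries and 23.5, 3.45 and 10.6 CPM at 4C, a ratio of 979 with a 95% counting interval of 175 to 38700. Such intervals, and the floors used below, cover counting error only. Eif4e3 and Eif1b fell, from 341 to 16.8 CPM and from 284 to 30.2 CPM.

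Of 36 cytosolic chaperone genes, 25 rose and 6 fell, which is 69.4% and 16.7%, beside 37.1% and 37.0% over all tested genes. Hspa8, the constitutive HSC70 chaperone, stood at 143, 149.7 and 140 CPM and then 6075, 3771 and 4029 CPM (log2 change 5.00, SE 0.213, edgeR adjusted p = 8.45e-09), and Hsp90ab1 at 658, 695 and 807 CPM and then 6223, 4022 and 5146 CPM (log2 change 2.83, SE 0.183, edgeR adjusted p = 1.41e-07). Both were among the 5 highest genes by CPM at 4C, and their stages lay far apart. In the chaperonin that folds actin and tubulin, Cct6a rose from 2.52 to 371 CPM while Cct3 rose from 110.4 to 320 CPM. The members that fell included Hsf1, the heat shock transcription factor, from 159 ± 7.34 to 33.3 ± 4.69 CPM, and the prefoldin subunit Pfdn4, from 198 ± 40.03 to 12.3 ± 3.39 CPM. Of 48 proteasome genes, 33 rose and 7 fell, which is 68.8% and 14.6%, beside the same 37.1% and 37.0%. Psme1, of the 11S activator, rose from 0.456, 0 and 0.299 CPM to 37.6, 32 and 41.2 CPM (log2 change 7.21, SE 0.645, edgeR adjusted p = 1.84e-06), whereas Psme3, its nuclear relative, fell from 532, 525 and 527 CPM to 132, 101 and 154 CPM (log2 change -2.03, SE 0.168, edgeR adjusted p = 9.67e-07).

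Of 73 spliceosome and SR protein genes, 46 rose and 7 fell, a median log2 fold change of 0.84. This is 63.0% and 9.59%, beside 37.1% and 37.0% over all tested genes. Without 4C replicate 2 the number of listed genes that fell was 11. Snrpb, a core Sm protein, went from 1.49, 1.54 and 1.64 CPM to 162, 78.5 and 108 CPM (log2 change 6.21, SE 0.319, edgeR adjusted p = 2.89e-08). Prpf8, at the centre of the spliceosome, went from 148 ± 24.8 to 759 ± 87.1 CPM and the SR protein Srsf3 from 69.7 ± 7.34 to 264 ± 35 CPM. Sf3b1, which binds the branch site, was high at both stages, with 504, 428 and 531 CPM and 892, 955 and 880.3 CPM (log2 change 0.90, SE 0.133, edgeR adjusted p = 0.000101). The core factors named here therefore rose to different degrees. Snrnp27, of the tri-snRNP, fell from 196 ± 16.2 to 45.2 ± 12.7 CPM.

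Transcripts known as markers of the 2-cell stage did not share a direction. Of 30 tested of 42 listed, 13 rose and 10 fell, which is 43.3% and 33.3%, beside 37.1% and 37.0% over all tested genes. The median log2 fold change of 0.34 turned negative with no low-count filter and without early 2C replicate 1 or 2 or 4C replicate 2. It was 1.55 with a stricter low-count filter. Dux, a homeobox factor of the first transcription wave, stood at 28.6, 26.6 and 34.9 CPM and then 0.784, 0.0934 and 0.554 CPM (log2 change -5.95, SE 0.544, edgeR adjusted p = 2.17e-06). Zscan4d, a target of DUX and a classical 2-cell marker, was low at early 2C, with 6.01, 6.04 and 7.29 CPM, and had 0.230, 0.513 and 0.514 CPM at 4C (log2 change -3.92, SE 0.606, edgeR adjusted p = 0.000139). Zfp750, which encodes an epidermal zinc finger protein, fell from 387, 389 and 422 CPM to 3.13, 5.74 and 1.9 CPM (log2 change -6.81, SE 0.350, edgeR adjusted p = 2.92e-08). Dux, Zscan4d and Zfp750 were higher in all early 2C libraries. Zfp352, another 2-cell marker, had 14.7, 13.4 and 18.7 CPM and 8.9, 28.7 and 5.85 CPM and did not pass (log2 change -0.11, SE 0.511, edgeR adjusted p = 0.853); without 4C replicate 2 it did, at log2 -1.15 (adjusted p = 0.0144, edgeR). Members that rose included Mt1, a metal-binding metallothionein, from 1.87, 0.467 and 1.53 CPM to 374, 178 and 292 CPM (log2 change 7.78, SE 0.459, edgeR adjusted p = 7.64e-08), and the BTB domain genes Tdpoz2, from 0.0539 to 40.5 CPM, and Tdpoz4, from 0.239 to 50.8 CPM. Dux, Zscan4, Tdpoz and Obox genes are near-identical families, so reads may be split among copies. No library lies between early 2C and 4C, so levels later in the 2-cell stage were not measured.

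Transcription factors linked with activation of the embryonic genome were followed next: of 40 tested, 19 rose and 16 fell, which is 47.5% and 40.0%, beside 37.1% and 37.0% over all tested genes. The oocyte homeobox family had members of each direction. Obox1 stood at 440.4, 497 and 421 CPM and then 4.79, 8.78 and 6.05 CPM (log2 change -6.11, SE 0.241, edgeR adjusted p = 5.47e-09) and Obox5 at 877, 947 and 807 CPM and then 16.2, 9.8 and 23.7 CPM (log2 change -5.72, SE 0.303, edgeR adjusted p = 3.57e-08). Obox6 stood at 0.829, 0.575 and 1.27 CPM and then 438, 384 and 394 CPM (log2 change 8.82, SE 0.267, edgeR adjusted p = 1.73e-09), so that the 2 kinds of member changed places. The related Crxos1 rose from 0.536 to 279 CPM (log2 8.99) and Obox3 from 5.28 ± 1.02 to 31.4 ± 23.9 CPM.

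The TEAD and ETS factors, the nuclear receptor Nr5a2 and Krüppel-like factors were also followed. Tead4, which acts with YAP1 in trophectoderm choice, stood at 0.290, 0.252 and 1.68 CPM and then 437, 309 and 353 CPM (log2 change 8.93, SE 0.529, edgeR adjusted p = 7.79e-08). Gabpa, the ETS factor named with the promoters, stood at 2.57, 3.81 and 3.03 CPM and then 405, 289 and 301 CPM (log2 change 6.72, SE 0.237, edgeR adjusted p = 3.21e-09), and Klf5 at 1.82, 2.69 and 3.7 CPM and then 408, 252 and 387 CPM (log2 change 6.99, SE 0.310, edgeR adjusted p = 1.11e-08). Tead4, Gabpa and Klf5 were far lower in every early 2C library than in any 4C library. Nr5a2 was present earlier, with 71.3, 62.6 and 72.6 CPM and then 534, 478 and 427 CPM (log2 change 2.80, SE 0.149, edgeR adjusted p = 3.58e-08). Klf17, a zygotic Krüppel-like factor, was high at 1188, 1258 and 1300 CPM and fell to 774, 762 and 799 CPM (log2 change -0.68, SE 0.120, edgeR adjusted p = 0.000372). Myc rose from 1.28 ± 0.484 to 35.2 ± 2.93 CPM and the immediate early gene Egr1 fell from 58.8 ± 11 to 3.37 ± 1.78 CPM. Tbp, the TATA-binding protein, had 139, 124 and 109 CPM and 103, 95.1 and 86.2 CPM (log2 -0.39; adjusted p = 0.0416, edgeR), a call lost without early 2C replicate 1 or 4C replicate 3 (adjusted p 0.17 and 0.0867).

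**Figure D4:**
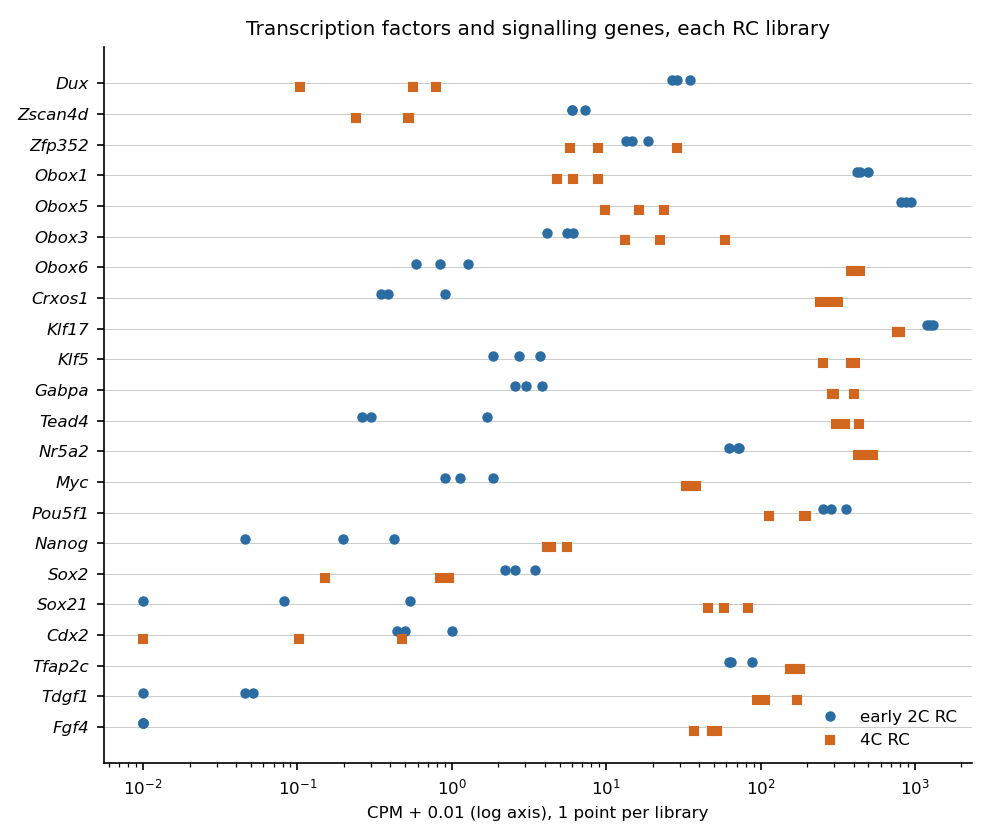
Levels of transcription factors and signalling genes in each library, in CPM with 0.01 CPM added on a log axis, with blue points for the early 2C and orange squares for the 4C libraries. Tead4 and Obox6 lie near 1 CPM at early 2C and above 300 CPM at 4C, and Obox1 and Dux go the other way.

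Genes of pluripotency and lineage rose more often than they fell. Of 39 tested members, 25 rose and 7 fell, with a median log2 fold change of 2.33. This is 64.1% and 17.9%, beside 37.1% and 37.0% over all tested genes. Fgf4, the growth factor that the later inner cell mass sends to its neighbours, had 0 counts in all early 2C libraries and 37.1, 48.3 and 51.9 CPM at 4C, which is at least 1210-fold higher when 3 counts over the early 2C group are taken as the floor. Tdgf1, the NODAL co-receptor also called Cripto, stood at 0.0415, 0.0359 and 0 CPM and then 172, 95.5 and 107 CPM, a ratio of 4880 with a 95% counting interval of 1350 to 40300. Sall1, a zinc finger repressor, had a ratio of 1090 (interval 373 to 5300), with 58.3, 17.2 and 48 CPM at 4C. Fgf4, Tdgf1 and Sall1 were thus undetected or barely detected at early 2C at this depth. Sox21 rose from 0.198 to 62.2 CPM and Tfap2c, a regulator of the trophectoderm, from 71.8 ± 14.2 to 167 ± 12.9 CPM. Nanog, a core pluripotency factor, was scarce at both stages and rose, with 0.415, 0.0359 and 0.187 CPM and then 5.53, 4.11 and 4.39 CPM (log2 change 4.45, SE 0.852, edgeR adjusted p = 0.000687). Pou5f1, which encodes OCT4, had 256, 357 and 285 CPM and 196, 113 and 191 CPM (log2 change -0.84, SE 0.216, edgeR adjusted p = 0.00454) and so fell slightly. Sox2 was scarce too, with 2.57, 2.19 and 3.44 CPM and 0.830, 0.140 and 0.949 CPM (log2 change -2.08, SE 0.837, edgeR adjusted p = 0.0424), and it no longer passed without any 1 of 5 of the 6 libraries (adjusted p 0.0513 to 0.136 in those fits, edgeR). Cdx2, the trophectoderm factor, had 0.995, 0.431 and 0.486 CPM and 0.0922, 0.467 and 0 CPM and did not pass (adjusted p = 0.235, edgeR). Prdm1, a germ cell repressor, fell from 60.1, 43.8 and 61.2 CPM to 0.876, 0.373 and 0.752 CPM (log2 change -6.35, SE 0.361, edgeR adjusted p = 5.69e-08).

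Of 45 tested adhesion, junction and channel genes, 20 rose and 14 fell, which is 44.4% and 31.1%, beside 37.1% and 37.0% over all tested genes. Gja1, which encodes the gap junction protein connexin 43, stood at 0.829, 0.826 and 0.411 CPM and then 394, 325 and 416 CPM (log2 change 9.09, SE 0.270, edgeR adjusted p = 1.64e-09). Epcam, an epithelial adhesion protein, stood at 0.249, 0.395 and 0.486 CPM and then 73.8, 96.9 and 89.4 CPM (log2 change 7.82, SE 0.305, edgeR adjusted p = 5.09e-09), and the water and glycerol channel Aqp3 at 0.829, 0.216 and 0.0374 CPM and then 64.9, 22.1 and 54 CPM (log2 change 7.05, SE 0.734, edgeR adjusted p = 6.36e-06). These epithelial genes were almost undetected at early 2C. Cdh1, the E-cadherin of compaction, was present earlier and rose from 121, 140.3 and 132 CPM to 265, 186 and 236 CPM (log2 change 0.80, SE 0.161, edgeR adjusted p = 0.000949), while Cdh2, N-cadherin, fell from 47.9, 46.7 and 51.1 CPM to 1.24, 0.467 and 1.5 CPM (log2 change -5.48, SE 0.394, edgeR adjusted p = 3.19e-07). The polarity protein Pard6b fell from 214 ± 9.97 to 14.2 ± 5.48 CPM and the desmosomal Dsc2 from 17.1 ± 1.71 to 1.19 ± 0.853 CPM. Of the keratin pair of the trophectoderm, Krt18 had 0.581, 1.51 and 0.523 CPM and 6.04, 3.87 and 6.13 CPM (log2 2.61; adjusted p = 0.00351, edgeR), and Krt8 had 1.58, 2.26 and 3.47 CPM and 5.9, 2.94 and 6.13 CPM and did not pass (adjusted p = 0.116). Both keratins were low at each stage.

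**Figure D5:**
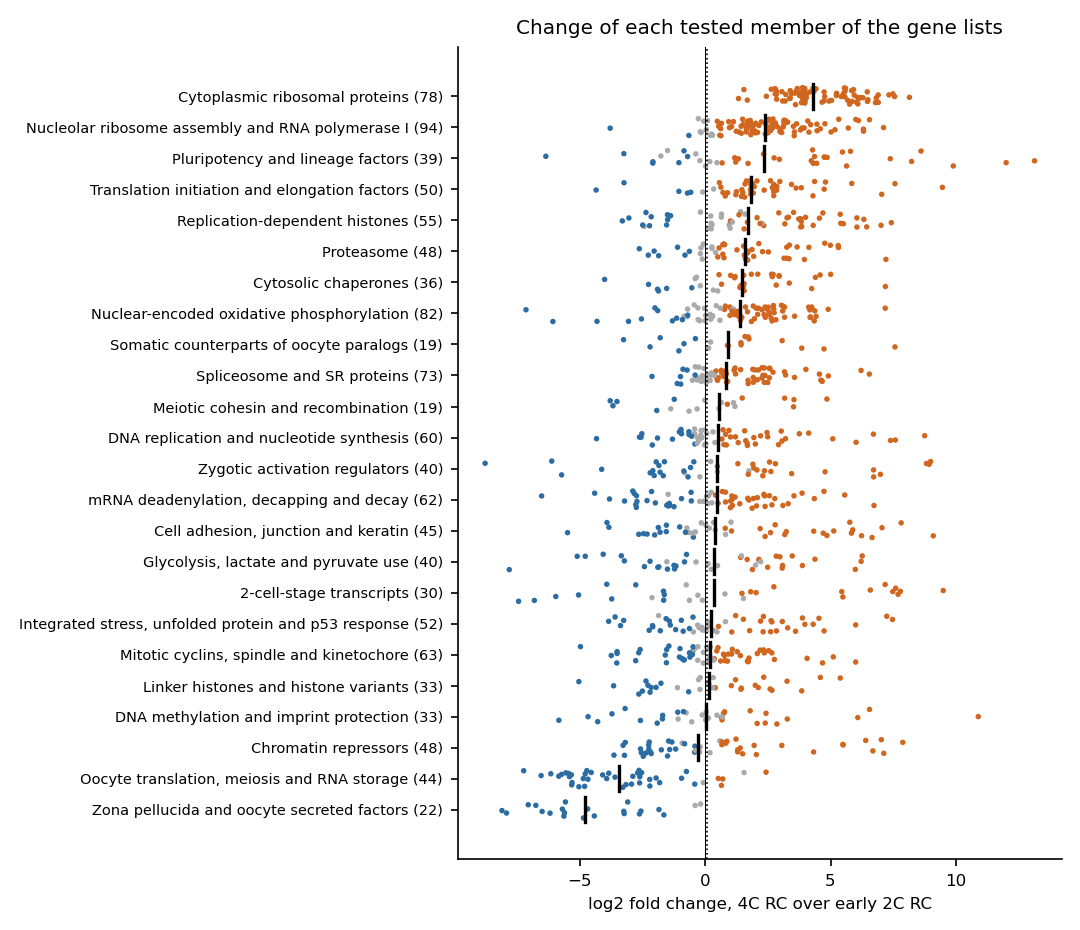
Log2 fold change, 4C minus early 2C, of every tested member of each gene list, with the median of the list as a black bar and the median of all tested genes as a dotted line. Orange members rose, blue members fell and grey ones did not pass. The ribosomal proteins lie wholly to the right of 0 around a median of 4.32, the oocyte lists mostly to the left, with medians of -4.77 and -3.44, and most other lists on both sides.

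Of 40 tested genes of glucose, lactate and pyruvate use, 15 rose and 16 fell, which is 37.5% and 40.0%, beside 37.1% and 37.0% over all tested genes, and the median of 0.37 was -0.08 with a stricter low-count filter. Hk1, a hexokinase, rose from 1.99, 1.76 and 2.91 CPM to 200, 147 and 165 CPM (log2 change 6.26, SE 0.255, edgeR adjusted p = 6.55e-09). Slc2a1, the glucose transporter GLUT1, fell from 45.4, 55.3 and 43.3 CPM to 2.12, 8.31 and 3.8 CPM (log2 change -3.34, SE 0.437, edgeR adjusted p = 3.89e-05), whereas Slc2a3, GLUT3, rose from 0.912, 0.647 and 1.1 CPM to 51.6, 48.8 and 70.2 CPM (log2 change 5.99, SE 0.324, edgeR adjusted p = 4.05e-08). The transporters thus changed in opposite directions. G6pdx, the entry enzyme of the pentose phosphate pathway, fell from 769.9, 929 and 824 CPM to 16, 22.8 and 34.6 CPM (log2 change -5.10, SE 0.275, edgeR adjusted p = 3.97e-08), and Tpi1, a triose isomerase of glycolysis, from 47.1 ± 5.51 to 2.8 ± 1.59 CPM. Ldhb, which interconverts lactate and pyruvate, was at 1239, 1507 and 1206 CPM and then 43.6, 49.2 and 51.2 CPM (log2 change -4.78, SE 0.164, edgeR adjusted p = 2.88e-09). Brp44, a subunit of the mitochondrial pyruvate carrier, rose from 4.43 ± 3.33 to 92.5 ± 8.0 CPM. Hk2 had 9.62, 7.11 and 11.5 CPM and 35.7, 8.73 and 30.8 CPM (log2 change 1.42, SE 0.463, edgeR adjusted p = 0.0169), a call lost without early 2C replicate 2 or 4C replicate 1 or 3. Gapdh had 15.8, 19.7 and 13.6 CPM and 20.1, 27 and 22.2 CPM and did not pass (adjusted p = 0.112, edgeR).

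Of 82 nuclear genes of oxidative phosphorylation, 53 rose and 11 fell, with a median log2 fold change of 1.41. This is 64.6% and 13.4%, beside 37.1% and 37.0% over all tested genes. Uqcrc1, of complex III, stood at 0.373, 1.15 and 0.0747 CPM and then 93.8, 63.8 and 79.8 CPM (log2 change 7.18, SE 0.581, edgeR adjusted p = 8.28e-07), and Atp5d, of ATP synthase, at 1.78, 1.9 and 2.73 CPM and then 49, 27.5 and 57 CPM (log2 change 4.37, SE 0.362, edgeR adjusted p = 9.9e-07). Both were low in every early 2C library. Among genes averaging at least 50 counts, the members that fell most were tissue-restricted forms of complex IV subunits: Cox6a2, a muscle form, from 6.93 to 0.0923 CPM, and Cox6b2, a testis form, from 14.8 to 0.748 CPM. Sdhc, of complex II, fell from 24.7 ± 2.45 to 2.96 ± 1.31 CPM.

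The summed level of mitotic genes, 11920 to 12270 CPM at early 2C and 9739 to 10940 CPM at 4C, was lower in every 4C library, by less than in the oocyte lists. Of 63 members, 28 rose and 23 fell, which is 44.4% and 36.5%, beside 37.1% and 37.0% over all tested genes, with a median of 0.19. Ccnb1, cyclin B1, had 786, 849.6 and 924 CPM and 906, 756 and 785 CPM and did not pass (log2 change -0.07, SE 0.133, edgeR adjusted p = 0.671). Ccna2, cyclin A2, rose from 245, 259 and 269 CPM to 570.4, 525 and 541 CPM (log2 change 1.08, SE 0.124, edgeR adjusted p = 1.35e-05) and Cdk1 from 34.4, 35 and 34.4 CPM to 199, 227 and 174 CPM (log2 change 2.53, SE 0.158, edgeR adjusted p = 1.08e-07). The regulators of G1 moved further than these. Ccne1, cyclin E1, stood at 8.25, 9.23 and 7.96 CPM and then 278, 307 and 294 CPM (log2 change 5.11, SE 0.164, edgeR adjusted p = 2.45e-09) and Cdk4 rose from 3.24 ± 0.862 to 54.2 ± 8.38 CPM. The CDK inhibitors exchanged, with Cdkn1b, which encodes p27, going from 38.4, 30.3 and 41.4 CPM to 1.01, 1.59 and 0.910 CPM (log2 change -4.97, SE 0.345, edgeR adjusted p = 2.34e-07) and Cdkn1a, which encodes p21, from 1.58, 0.862 and 1.87 CPM to 115, 91.4 and 69.2 CPM (log2 change 6.00, SE 0.342, edgeR adjusted p = 5.86e-08). The spindle checkpoint kinase Ttk and the kinetochore protein Nuf2 fell, from 460.3 to 40.1 CPM and from 417 to 31.2 CPM.

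Of 60 genes of DNA replication and nucleotide synthesis, 30 rose and 15 fell. The largest rises in the list were of purine synthesis. Impdh2, the rate-limiting enzyme of guanine nucleotide synthesis, stood at 2.57, 7.94 and 3.03 CPM and then 2285, 1547 and 2052 CPM (log2 change 8.75, SE 0.451, edgeR adjusted p = 3e-08), Impdh1 rose from 1.57 ± 0.619 to 264 ± 40.5 CPM, and Ppat, which starts the pathway, from 2.17 ± 1.04 to 417 ± 27.2 CPM. The list's other purine enzymes, Gart, Pfas, Paics, Adsl and Atic, rose too, with log2 fold changes of 5.09, 6.02, 2.47, 3.75 and 1.62; they were grouped after their values were seen. Among the replication proteins, several did not pass. Mcm2, a subunit of the replicative helicase, had 269, 250.1 and 297 CPM and 271, 181 and 232 CPM (log2 -0.26, adjusted p = 0.183, edgeR), and the clamp Pcna had 121, 123 and 125 CPM and 107, 105 and 86.4 CPM (log2 -0.31, adjusted p = 0.0766). Neither passed, nor did Mcm5, with 102 ± 2.95 and 76.6 ± 24.2 CPM. Mcm2 and Mcm5 passed as lower without 4C replicate 1 (adjusted p = 0.0488 and 0.0109), and Pcna without 4C replicate 2 (0.0396). Rrm2, of ribonucleotide reductase, rose from 67.8 ± 4.28 to 260.2 ± 38.2 CPM, Rpa1, of the single-strand binding complex, fell from 141 ± 6.23 to 24.1 ± 0.636 CPM, and Gins2, of the helicase's GINS complex, from 33.4 ± 9.36 to 1.67 ± 1.19 CPM.

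Among 55 tested replication-dependent histone genes, 30 rose and 10 fell, which is 54.5% and 18.2%, beside 37.1% and 37.0% over all tested genes. The median log2 fold change of these histone genes was 1.69. Their summed level was 1785 to 2621 CPM at early 2C and 1374 to 1995 CPM at 4C, and the stages overlapped. These genes are near-identical and their RNAs mostly lack poly(A) tails, which total RNA libraries do not require. Hist1h1c stood at 14.3, 22.9 and 15.7 CPM and then 226, 196 and 340 CPM (log2 change 3.85, SE 0.264, edgeR adjusted p = 2.23e-07), and the testis and oocyte H2B gene Hist1h2ba fell from 24.4, 27.5 and 16.1 CPM to 1.29, 3.59 and 2.02 CPM (log2 change -3.30, SE 0.441, edgeR adjusted p = 4.65e-05). Slbp, which binds the stem-loop at the end of these RNAs, fell from 1443, 1560.2 and 1909 CPM to 125, 122 and 145 CPM (log2 change -3.65, SE 0.163, edgeR adjusted p = 1.14e-08). Of 33 linker histone and variant genes, 14 rose and 11 fell, which is 42.4% and 33.3%, beside 37.1% and 37.0% over all tested genes. H2afz, a histone variant, rose from 6.89 ± 1.53 to 166 ± 9.16 CPM. The genes of histone H3.3, H3f3a and H3f3b, had 126 ± 22.6 and 616 ± 23.4 CPM at early 2C and 139.7 ± 4.02 and 673 ± 103 CPM at 4C, and neither passed (adjusted p = 0.408 and 0.433, edgeR). Chaf1a, of the histone chaperone CAF-1, fell from 638 ± 32.2 to 164 ± 24.5 CPM, and H1f0, a linker histone of resting cells, from 114 ± 2.82 to 24.9 ± 4.55 CPM.

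Of 33 tested genes that write, keep and remove DNA methylation, 13 rose and 11 fell, which is 39.4% and 33.3%, beside 37.1% and 37.0% over all tested genes, with a median of 0.05 that turned negative with no low-count filter and without 4C replicate 2. Tet3, the oxidase of the paternal genome in the zygote, stood at 3489.9, 3085 and 3769 CPM and then 119, 122 and 167 CPM (log2 change -4.67, SE 0.188, edgeR adjusted p = 5.97e-09), while Tet1 stood at 5.85, 4.02 and 4.41 CPM and then 502, 358 and 479 CPM (log2 change 6.55, SE 0.229, edgeR adjusted p = 3.11e-09). Per kb, Tet3 went from 316 ± 31.6 to 12.5 ± 2.47 CPM and Tet1 from 0.331 ± 0.0669 to 31.1 ± 5.39 CPM, so that their order turned. Uhrf1, which guides the maintenance methyltransferase, fell from 1048, 1027 and 1062 CPM to 48.7, 48.1 and 64.3 CPM (log2 change -4.28, SE 0.166, edgeR adjusted p = 4.81e-09) and Dnmt1 itself from 1173, 1055 and 961 CPM to 279.9, 275 and 294 CPM (log2 change -1.91, SE 0.134, edgeR adjusted p = 2.46e-07). Of the factors that protect imprints, Zfp57 fell from 4233, 4900.2 and 4639.6 CPM to 67.8, 77.1 and 97 CPM (log2 change -5.83, SE 0.190, edgeR adjusted p = 2.59e-09). Its partner Trim28 rose from 83.6, 86.8 and 81.7 CPM to 703, 467 and 663 CPM (log2 change 2.86, SE 0.176, edgeR adjusted p = 1.01e-07). The zinc finger protein and its corepressor thus moved in opposite directions. Dnmt3b had 32.8 ± 0.614 and 36 ± 11.8 CPM and did not pass (adjusted p = 0.644, edgeR).

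Xist, the RNA of the inactive X chromosome, stood at 0.456, 0.0359 and 0.112 CPM at early 2C and 163, 729 and 228 CPM at 4C (log2 change 10.89, SE 0.821, edgeR adjusted p = 4.74e-07). Rlim, the ubiquitin ligase needed for imprinted X inactivation, was high at both stages, with 513, 395 and 511 CPM and 331, 554 and 423 CPM, and did not pass (adjusted p = 0.591, edgeR). All 4C libraries had far more Xist than any early 2C library, and the 4C library with the most Xist, replicate 2, was also the one with the least Eif2s3y. Igf2r, an imprinted receptor gene, rose from 32.3, 27.8 and 27.6 CPM to 1751, 1839 and 2361 CPM (log2 change 6.08, SE 0.188, edgeR adjusted p = 1.99e-09). Among 48 chromatin repressors, 20 rose and 22 fell, which is 41.7% and 45.8%, beside 37.1% and 37.0% over all tested genes. Kdm5b, a demethylase of histone H3 lysine 4, stood at 6.68, 8.26 and 8.03 CPM and then 1051, 1084 and 1068 CPM (log2 change 7.12, SE 0.171, edgeR adjusted p = 9.09e-10), and Kdm1b, another such enzyme, which oocytes express, fell from 256, 255 and 303 CPM to 29.5, 27.3 and 30.9 CPM (log2 change -3.21, SE 0.155, edgeR adjusted p = 1.74e-08). The heterochromatin proteins also crossed: Cbx3 rose from 1.95, 2.77 and 2.8 CPM to 340.4, 346 and 296 CPM (log2 change 7.02, SE 0.210, edgeR adjusted p = 1.64e-09) and Cbx1 fell from 126, 147 and 143 CPM to 15.8, 16.2 and 11.1 CPM (log2 change -3.27, SE 0.201, edgeR adjusted p = 1.01e-07). The deacetylase Hdac1 rose from 7.64 ± 0.477 to 347 ± 12 CPM and Kdm4c, a demethylase of H3 lysine 9, from 1.46 ± 0.245 to 152 ± 23 CPM. The H3 lysine 9 methyltransferases Setdb1 and Suv39h2 fell, from 468 to 91 CPM and from 219 to 17.6 CPM.

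Of 52 tested stress and p53 response genes, 23 rose and 16 fell, a median of 0.23. This is 44.2% and 30.8%, beside 37.1% and 37.0% over all tested genes. Targets of p53 were among the members that rose: beside Cdkn1a, the proapoptotic Bbc3, also called Puma, had a ratio of 196 (95% counting interval 66.6 to 952) and Phlda3 of 171 (58.2 to 833), with 12.6, 4.76 and 5.34 CPM and 6.41, 5.27 and 7.67 CPM at 4C. Trp53 itself fell from 30.2, 33.1 and 39 CPM to 16.7, 12.8 and 23.5 CPM (log2 change -0.95, SE 0.272, edgeR adjusted p = 0.00842). Mdm2, both a target and an inhibitor of p53, had 198, 195 and 207 CPM and 187, 171 and 199 CPM and did not pass (adjusted p = 0.475, edgeR). The targets named here thus did not move alike. The chaperone of the endoplasmic reticulum Hspa5 rose from 134 ± 25.2 to 387 ± 33.2 CPM and Ddit4, an inhibitor of mTORC1, from 41.3 ± 8.89 to 86.1 ± 12.1 CPM. Ddit3, which encodes CHOP, fell from 55.9 ± 11.6 to 5.4 ± 4.55 CPM, the kinase Eif2ak4, also called GCN2, from 199.9 ± 20.01 to 16.6 ± 3.32 CPM, and the peroxidase Prdx2 from 254 ± 56.1 to 17.7 ± 1.57 CPM. Of 19 tested meiotic genes, 6 rose and 5 fell, which is 31.6% and 26.3%, beside the same 37.1% and 37.0%. Syce2 fell and Sycp1 rose, both of the synaptonemal complex, from 279 to 20.2 CPM and from 16.1 to 187 CPM.

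The largest increases and decreases over all genes were read from genes that averaged at least 50 counts and whose stages did not overlap. Besides Fgf4, Atg4d, a protease of autophagy, the cytokine Flt3l and the keratin Krt28 had 0 counts in all early 2C libraries and were at least 486-fold, 406-fold and 353-fold higher at 4C against the floor of 3 counts. Fkbp10, a collagen chaperone, had a ratio of 5140 (95% counting interval 923 to 203000) and 57.1, 53 and 82.9 CPM at 4C. On the other side, Calb1, a calcium-binding protein, had 19.5, 19.6 and 25.3 CPM at early 2C and 0 counts at 4C, at least 491-fold lower. The same held for Fam187b (at least 286-fold lower), the esterase Aadac (211), the sodium-proton exchanger Slc9a4 (206), Asb15 (202) and the red cell membrane protein Epb4.2 (196). Each was between 8.55 and 21.5 CPM on average at early 2C.

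Among genes with at least 10 counts in every library, with predicted and clone-named genes left out, the largest rises were of metabolic, membrane and reproductive genes. Sord, sorbitol dehydrogenase, stood at 0.622, 1.08 and 0.672 CPM and then 812, 556 and 792 CPM (log2 change 9.81, SE 0.285, edgeR adjusted p = 1.64e-09). Pdxk, the kinase that activates vitamin B6, stood at 1.29, 0.898 and 1.08 CPM and then 950.1, 717 and 839 CPM (log2 change 9.58, SE 0.228, edgeR adjusted p = 9.09e-10), and the potassium channel Kcnk6 at 0.746, 0.826 and 0.486 CPM and then 430.2, 371 and 435 CPM (log2 change 9.22, SE 0.233, edgeR adjusted p = 9.09e-10). The remaining ones were Timd2, a receptor for ferritin, with a log2 fold change of 9.30, Pramel7, of a family expressed in early embryos and germ cells, with 9.21, and Gja1. The largest decreases in this class were of Rab38, a small GTPase, from 180.5 ± 7.12 to 0.915 ± 0.102 CPM, and of Rgs2, which dampens G protein signals in the egg. Rgs2 stood at 629.9, 657 and 605 CPM and then 3.41, 4.34 and 3.2 CPM (log2 change -7.43, SE 0.190, edgeR adjusted p = 9.09e-10). Zbed3 stood at 15661, 16970.1 and 16908 CPM and then 61.2, 113 and 148 CPM (log2 change -7.27, SE 0.332, edgeR adjusted p = 1.32e-08), and was thus among the 5 highest genes at early 2C and near 100 CPM at 4C. Bcl2l10, Pdlim2 (log2 -7.10) and Lypd3 (log2 -7.09) completed the 6.

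The most abundant RNAs changed rank as well. By CPM, without regard to length, Ccdc82 was the highest gene at early 2C, with 58832, 57325 and 56610.5 CPM, and it stood at 9846, 12149 and 10323 CPM at 4C (log2 change -2.42, SE 0.141, edgeR adjusted p = 6.59e-08). It took 5.5%, 5.53% and 5.2% of all counts and then 1.02%, 1.36% and 1.08%. Spin1, a chromatin reader that oocytes express strongly, went from 6494, 5671 and 6090.2 CPM to 282, 370.5 and 351 CPM (log2 change -4.18, SE 0.162, edgeR adjusted p = 4.75e-09). At 4C the highest were Rn45s, Ccdc82, Lars2, Hsp90ab1 and Hspa8. Lars2, the mitochondrial leucyl-tRNA synthetase, stood at 4197, 2379.5 and 2076 CPM and then 8883, 7529.8 and 4886 CPM (log2 change 1.30, SE 0.280, edgeR adjusted p = 0.00153); no check of reads from other transcripts on this gene was made.

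Markers of other cells that such samples could hold were mostly low. Of 15 cumulus cell markers 4 were tested, of 14 sperm markers 2, of 11 blood markers 1 and of 8 fibroblast markers 3. Cyp19a1, aromatase, had 21.5, 23.4 and 21 CPM at early 2C and 0, 0.560 and 0.673 CPM at 4C, while Amhr2, the receptor of anti-Müllerian hormone, had 0.0829, 0.359 and 0.262 CPM and 40.3, 30.3 and 36 CPM. Without these genes the summed cumulus markers were 2.37 to 5.1 CPM and then 0.922 to 3.13 CPM, and Inha was at 0 in all libraries. The sperm markers summed to 412 to 492 CPM and then 57.0 to 75.8 CPM, nearly all of it Odf2, which centrosomes also use; without Odf2 they came to 1.53 to 4.89 CPM and 0.14 to 1.98 CPM, and Acr, Akap4, Tnp2 and Smcp were at 0. Blood markers summed to 0.56 to 3.57 CPM and 0.98 to 3.36 CPM. Fibroblast markers summed to 4.06 to 5.64 CPM and 6.32 to 10.6 CPM, most of it Pdgfra, which early embryos also express, with Col1a2, Col3a1, Lum and Thy1 at 0. The part of such cells in the results above was not tested.

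Across genes, the change had little relation to simple sequence features. Spearman's rho of the log2 fold change was -0.085 with transcript length and 0.105 with GC content over 14167 genes. It was 0.064 with the number of CG pairs in the whole promoter sequence over 11363 genes. These values are given as descriptions because genes are not independent replicates. The median number of CG pairs was 22.5 in ribosomal protein promoters and 20 over all tested genes. It was 4.0 in promoters of the list of zona pellucida, secreted and other oocyte factors.

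The same stage contrast in the LINE1 ASO embryos shares no library with this one. Of the 10628 genes called in the RC embryos, 10511 were tested there, 10315 had the same sign and 9580 had the same sign and passed. These 9580 genes are 90.1% of the calls in RC embryos and 85.3% of the 11233 calls in LINE1 ASO embryos. Beside these shares, 74.1% of all tested genes were called in RC embryos, 37.1% higher and 37.0% lower. The share called over all genes tested in LINE1 ASO embryos is not given here. Of the 7109 genes changed by at least 4-fold in RC embryos, 6693 passed in LINE1 ASO embryos in the same direction. No difference between the treatments was tested here.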

How the data were processed

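Per the labels, total RNA of embryos was sequenced as stranded single-end 50 nt libraries, on 2 lanes, from 500 pg of column-purified RNA. The authors deposited 1 table of raw counts for each stage, with 23284 genes and no other unit. The build mm9 and the tools DESeq2 1.12.3, R 3.3.0, TopHat2 2.0.9 and Trim Galore 0.4.0 come from the submitters' processing notes, which are used here without their roles. Both table names include featureCounts; the sources used here do not give its strand setting, annotation or version. Reads of overlapping, antisense or near-identical genes are therefore uncertain.

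Columns were matched to libraries by their names and genes between the tables by symbol. Counts of the 6 RC libraries were filtered with filterByExpr, scaled by TMM and fitted with edgeR 4.0.16 (R 4.3.3), using robust quasi-likelihood dispersions and the F-test. P-values were adjusted by Benjamini-Hochberg over the 14352 tested genes, and 0.05 was the threshold. An SE is the log2 fold change, without its sign, over the square root of F. The 6 LINE1 ASO libraries were kept out of this fit because they would share in the estimate of the spread, and the fit of all 12 was an alternative. The members and gene lists, from textbook knowledge, were chosen with earlier results of these data known.

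Genes were named by a rule. It took, per direction, the 6 largest changes among called genes that averaged at least 50 counts and did not overlap between stages, and the 6 largest that also had at least 10 counts in each library, without genes of rRNA, miRNA or snoRNA and without predicted or clone names. It added a set of listed genes, up to 3 called members of each list per direction, the 5 genes with the highest mean CPM at each stage, and Rn45s. In all, 232 genes were named by it: 113 were higher, 105 lower and 14 did not pass. Where a group summed to 0 counts, folds were computed against 3 counts as its floor; where it summed to 1 to 3 counts, a ratio with an exact 95% counting interval is given instead.

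Transcript lengths came from GENCODE M21 and promoter sequences from RefSeq, both on GRCm38 and not the build of the files, so no other coordinates are given. In simulated counts for 13997 genes, with 50 genes changed at each size, the test recovered 2%, 38%, 74% and 94% of genes changed by 1.5, 2, 4 and 8-fold, with 3 false calls of 13797. Far fewer genes were changed there than the 74.1% called in the data, and the adjusted threshold depends on that share. The recovery and the number of false calls therefore do not carry over to the data. The alternatives left out each library in turn, added a replicate block, tested against a fold of 2, used DESeq2 1.42.0 or only its size factors, scaled by library totals, dropped or tightened the filter, removed the 20 most abundant genes, or dropped the robust step.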

Additional observations from a re-analysis of the deposited data

How the results depend on the processing

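No alternative moved the number of genes higher or lower at 4C by more than 1.5 times. Against 5319 higher and 5309 lower, the counts were 5341 and 5449 with DESeq2, 5609 and 4975 with library totals, where the median log2 fold change was 0.258 in place of 0.079, 5278 and 5651 with no low-count filter, 5690 and 5765 in the fit of all 12 libraries, and 4157 and 4124 in a test against a fold of 2, which by its construction also lowered the counts of lists with many small changes, such as the mitotic genes (15 higher and 12 lower). Leaving out each library gave 5027 to 5185 higher and 5009 to 5654 lower. The labels number replicates 1 to 3 at both stages, but same-numbered libraries did not deviate together (r = 0.0128, -0.0285 and 0.0225). Differently numbered libraries gave values of similar size (-0.0384 to 0.024). Whether same-numbered libraries shared a day, parents or a preparation was not tested. A replicate block gave 5015 higher and 5141 lower and changed 3 of 232 named genes, all losing the call: Sox2, Tbp and 2410004A20Rik. Genes that had not passed changed sign near 0 in places, and the cause was not tested: with library totals Ccnb1 (log2 0.1127), Mdm2 (0.0711), Rlim (0.0755) and Zfp352 (0.1078). Leaving out single libraries moved H3f3a between -0.0014 and 0.1945, H3f3b between -0.0115 and 0.1519, Rlim between -0.4117 and 0.0399, Zfp36l2 between -0.0459 and 0.1511, Dnmt3b between -0.1985 and 0.228, and Zfp352 between -1.1546 (the value without 4C replicate 2, which passed) and 0.2296. The test recovered fewer of the smallest changes in simulated data, in which far fewer genes were changed than were called here. The split of reads between near-identical genes could not be checked.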

Other observations

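Further gene families, chosen after their values were seen, moved between early 2C and 4C. Genes of small nucleolar RNAs, which guide chemical modification of ribosomal RNA, were higher: of 35 tested C/D box (Snord) genes 29 rose and 0 fell, and of 29 tested H/ACA box (Snora) genes 20 rose and 0 fell, with median log2 fold changes of 3.24 and 2.17. Against these, 37.1% of all tested genes rose and 37.0% fell. Their host genes rose too, 10 of 11 (median 4.6). Gas5, a long noncoding host of snoRNAs, had 9.58, 9.92 and 7.02 CPM at early 2C and 168, 165 and 115 CPM at 4C (log2 change 4.08, SE 0.229, edgeR adjusted p = 5.32e-08), and Snhg1 had 2.16, 2.52 and 2.24 CPM and 65.4, 65.4 and 37.1 CPM. Mir17hg, which hosts the miR-17 to miR-92a cluster, went from 0.249, 0.503 and 0.299 CPM to 18.7, 18.1 and 15.5 CPM (log2 change 5.6, SE 0.460, edgeR adjusted p = 8.84e-07). All 4C libraries were above all early 2C libraries in each of these genes. Reads of snoRNAs within the introns of host genes may be counted for either, depending on the annotation. Of 10 exosome subunits 9 rose and 0 fell, and of 76 mitochondrial ribosomal protein genes 49 rose and 9 fell, with a median of 1.2, below the 4.32 of the cytoplasmic ribosome.

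F-box and WD repeat genes, many of them a rodent cluster expressed in oocytes, mostly fell: 17 of 21, with a median log2 fold change of -3.71. Fbxw24 had 609, 679 and 633 CPM and then 22.4, 29.7 and 31 CPM (log2 change -4.53, SE 0.174, edgeR adjusted p = 4.75e-09), and Fbxw28 had 223, 132 and 131 CPM and then 2.9, 6.16 and 5.3 CPM (log2 change -5.08, SE 0.333, edgeR adjusted p = 1.59e-07). Both were far lower in every 4C library, although reads of such related genes may be split. Among 17 tested Nlrp genes, which include maternal effect genes, 11 fell and 3 rose, and their summed level was 6900 to 7090 CPM at early 2C and 375 to 503 CPM at 4C. Of 22 phosphodiesterase genes 14 fell and 3 rose. In the TNF receptor superfamily 8 of 13 tested genes rose and 2 fell, with a median of 3.83. These families too were chosen after their values were seen. Over all tested genes 37.1% rose and 37.0% fell.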
